A study of Homo sapiens with 9 samples.

Results

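The AGB1 treatment compared 3 libraries of HEK293T cells that received AGB1 with 3 libraries that received DMSO, 6 of the 9 libraries of the series. These libraries were chosen by their labelled treatment. HEK293T cells descend from human embryonic kidney and express the large T antigen of SV40. All groups, the DMSO controls included, carried the same pair of tagged proteins, labelled PRPS1-HA-dTAG and PRPSAP1-V5-BromoTag. AGB1 was used to deplete PRPSAP1, at 500 nM for 24 h. The remaining group of 3 libraries received dTAG47, used to deplete PRPS1, at the same dose and time. The labels do not say whether the tagged line is 1 clone, nor whether each library had its own culture. The p-values therefore speak only for how these libraries vary, and that variation may be technical. No untagged cells with AGB1 were analysed here.

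PRPS1 and PRPS2 are phosphoribosyl pyrophosphate (PRPP) synthetases, which join ribose 5-phosphate from the pentose phosphate pathway to pyrophosphate from ATP. PRPP is the sugar donor for purine, pyrimidine and NAD synthesis. PRPSAP1 and PRPSAP2 are related proteins without synthetase activity that assemble with the synthetases into one complex. The BromoTag is a mutated bromodomain, and AGB1 is a two-ended molecule that brings the ubiquitin ligase substrate receptor VHL to it. dTAG47 works in the same way through the substrate receptor CRBN and a mutated FKBP12. Both compounds therefore act on proteins, and protein levels were not analysed here.

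With AGB1, 10 genes were higher and 9 were lower than in DMSO, 0.0546% and 0.0491% of the 18319 genes tested (0.104% together, edgeR quasi-likelihood test, Benjamini-Hochberg adjusted p under 0.05). The genes that rose were HMOX1, CHAC1, SLC7A5, FTH1, RHOB, MYC, HSPA1A, U2AF1 and the ribosomal protein genes RPL36 and RPLP1. The genes that fell were SEMA3C, NRP1, DHRS3, NR2F1, FSTL1, WNT5A, HOXB3, HOXB9 and CENPE. In 18 of the 19 the AGB1 and DMSO libraries did not overlap, where 6.56% of all tested genes were higher and 6.75% lower without overlap. The exception was U2AF1. The 19 were called on these same libraries, so their lack of overlap is no separate support. The shifts were small: leaving out U2AF1 and CHAC1, every called gene lay within a log2 fold change of −0.71 to 0.64. Over all tested genes the median was −0.00092 and 49.7% were positive. An unadjusted p under 0.05 was found for 1421 genes (7.76%), of which 650 were higher (3.55%) and 771 lower (4.21%). These shares are the background for every list count at the unadjusted level below.

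**Figure D1:**
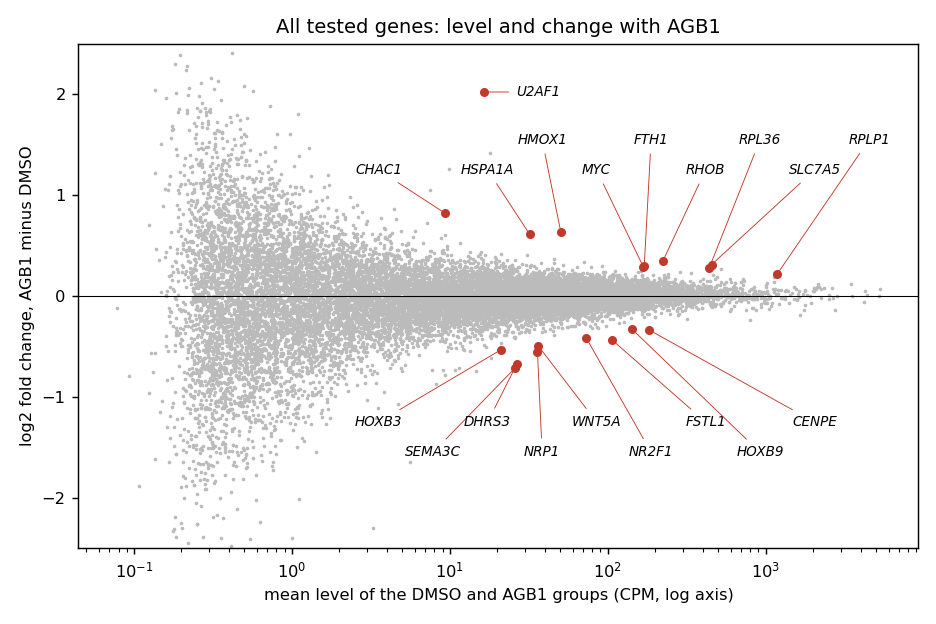
Level against change for every tested gene. The horizontal axis is the mean of the DMSO and AGB1 groups in CPM (counts scaled by library size) on a log axis, the vertical axis the log2 fold change of AGB1 minus DMSO, and red points are the 19 genes past the threshold. U2AF1 stands alone at 2.02, the other called genes lie close to the cloud, and 26 genes of low level fall beyond the vertical range.

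Totals ran from 27964128 to 37420878 counts in these 6 libraries. Among genes at 5 CPM or more, the standard error of the log2 fold change had a median of 0.09. Mitochondrial, ribosomal protein and non-coding transcripts and the 20 most abundant genes took shares of the counts that did not separate the groups (exact permutation tests, two-sided, gave p between 0.2 and 1, where n = 3 against 3 cannot go below 0.1). Deviation from the gene mean followed transcript GC content in the DMSO libraries (Spearman's rho across genes of −0.38, −0.28 and 0.27) and hardly in the AGB1 libraries (−0.03 to 0.05). With that trend removed, all 19 genes still passed, among 48 called in all. The DMSO deviations also followed transcript length (rho 0.40, 0.06 and −0.30, against −0.11 to −0.05 with AGB1). On the first principal component (22.05% of the variance) the groups did not separate: DMSO lay at −13.1, −7.46 and 4.85 and AGB1 between 1.67 and 1.91, with DMSO 1 and DMSO 2 apart from the rest of these libraries. On the second (15.25%) the DMSO libraries lay at 2.73, 5.83 and 10.1 and the AGB1 libraries between −6.18 and −4.80. In bulk libraries such as these, fewer cells of a type and less RNA per cell cannot be told apart. Of the epithelial markers listed for the labelled cell type, KRT18 (52.3 CPM in DMSO), KRT8 (33.3) and CDH1 (8.21) were present, while KRT19 and CLDN7 were too low to test. The vimentin gene VIM stood at 363 CPM in DMSO. The full list held 13 markers of epithelium, kidney and this line, of which 10 were tested. EPCAM and the others of that list are not described here. Of 12 markers of leukocytes, endothelium, fibroblasts, red cells and liver, COL1A1 alone was tested (−0.15, SE 0.11), and the other 11 had at most 47 counts over all 9 libraries.

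The sequences just before the start sites of the called genes were read from the RefSeq promoter table (GRCh38.p14), for 13 of the 19. HMOX1, FTH1, NRP1, HOXB3 and HOXB9 had no matched entry. MYC was left out of the search by choice, not for want of a match. A binding motif of a stress regulator can be looked for there. Motifs were searched on both strands of the 250 bases before each start site. Start sites were those of the first matched RefSeq entry and can differ from the gene bounds given in the text. The windows of CHAC1, WNT5A, RPL36 and FSTL1 lie inside those bounds. Some others overlap them in part, CENPE among them. The C/EBP-ATF response element that ATF4 binds, TGATGNAA, was found in 3.14% of 35116 promoters, and the E-box bound by MYC and its partners, CACGTG, in 6.34%. Each was found in 1 gene that rose and 1 gene that fell, and those 4 stretches are shown for that reason, 5′ to 3′ on the strand of the gene, with the match in capitals.
CHAC1: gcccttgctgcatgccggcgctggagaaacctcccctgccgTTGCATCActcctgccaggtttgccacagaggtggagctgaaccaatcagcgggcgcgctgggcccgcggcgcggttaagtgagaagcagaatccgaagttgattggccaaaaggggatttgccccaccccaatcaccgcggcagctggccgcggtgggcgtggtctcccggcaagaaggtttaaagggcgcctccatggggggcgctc
SEMA3C: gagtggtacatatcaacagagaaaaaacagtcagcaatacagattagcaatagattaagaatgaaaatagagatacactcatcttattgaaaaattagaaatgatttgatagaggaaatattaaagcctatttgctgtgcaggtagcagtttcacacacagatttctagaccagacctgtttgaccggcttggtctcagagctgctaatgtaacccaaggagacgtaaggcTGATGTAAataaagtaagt
SLC7A5: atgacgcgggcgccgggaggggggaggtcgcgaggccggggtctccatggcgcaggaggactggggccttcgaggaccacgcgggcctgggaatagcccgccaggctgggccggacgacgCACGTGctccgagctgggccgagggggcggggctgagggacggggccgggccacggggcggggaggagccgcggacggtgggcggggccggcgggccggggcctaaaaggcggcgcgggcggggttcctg
CENPE: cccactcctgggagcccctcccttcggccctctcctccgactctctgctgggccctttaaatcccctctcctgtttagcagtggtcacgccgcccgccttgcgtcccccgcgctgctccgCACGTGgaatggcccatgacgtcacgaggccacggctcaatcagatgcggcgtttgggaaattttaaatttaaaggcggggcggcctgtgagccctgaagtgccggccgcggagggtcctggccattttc
The CHAC1 stretch is chr15:40953221-40953470 on the plus strand, and its element, read on the opposite strand, begins 209 bases before the start. That of SEMA3C is chr7:80922390-80922639 on the minus strand, with the element 19 bases before the start. The E-box begins 130 bases before the start both in SLC7A5 (chr16:87869508-87869757, minus strand) and in CENPE (chr4:103198344-103198593, minus strand). The NRF2 element core TGACNNNGC (10.91% of promoters), the AP-1 site TGANTCA (6.57%) and the retinoic acid response element DR5 (1 of 35116) were in none of the 13 windows, which do not include HMOX1 and FTH1, the called genes of the NRF2 list. The heat shock pair GAANNTTC (5.78%) was in HSPA1A alone, and the hypoxia core ACGTG (18.51%), which CACGTG contains, in 2 genes that rose and 3 that fell. A match describes the letters in this window only.

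Transcripts of the PRPP synthetase complex, the tagged genes included, gave no call. PRPSAP1 (ENSG00000161542, GRCh38 chromosome 17, 76309486 to 76384521, minus strand) was at 36.6, 23.5 and 28.3 CPM in DMSO 1 to 3 and at 27.2, 29.9 and 30.2 CPM in AGB1 1 to 3, a log2 fold change of −0.02 (95% interval −0.26 to 0.22). DMSO 1 and DMSO 2 were the highest and lowest of these 6 values, and all AGB1 values lay between them. Its fold change was 0.17 without DMSO 1 and −0.16 without DMSO 2, so its sign rested on single libraries. PRPS1 was at 99.1, 105 and 106 CPM in DMSO and 109, 109 and 109.6 with AGB1 (0.08, −0.05 to 0.20). PRPS2 had −0.03 (−0.15 to 0.09), PRPSAP2 had 0.13 (−0.02 to 0.27), and none of the 4 passed the threshold. With all libraries, these intervals exclude a doubling or a halving of any of the 4 messages.

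HMOX1, the heme oxygenase that degrades heme to biliverdin, iron and carbon monoxide, was the gene with the smallest p. HMOX1 (ENSG00000100292, chromosome 22, 35380361 to 35394214, plus strand) was at 40.6, 37.8 and 40.1 CPM in DMSO 1 to 3 and 60.7, 62.3 and 61.3 CPM in AGB1 1 to 3. Every AGB1 library was above every DMSO library, and the log2 fold change was 0.64 (SE 0.08, edgeR adjusted p = 0.000126). FTH1, the ferritin heavy chain that stores iron released from heme (chromosome 11, 61959718 to 61967660, minus strand), was at 147, 158 and 153 CPM in DMSO and 193, 181 and 190.02 CPM with AGB1. Its groups did not overlap either, and it rose by 0.30 (SE 0.06, adjusted p = 0.0151). Of the exonic bases of FTH1, 62.4% lie opposite BEST1, and 30.8% of its 75-base words occur in 12 other genes, so its own count is uncertain to that extent.

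For the other genes of heme and iron handling no call was made. The list of 25 was fully tested, 17 were positive and the median was 0.05. HMOX1 and FTH1 rose, and 4 were higher at an unadjusted p under 0.05 (0 lower), the others being the heme transporter SLC48A1 (0.28, SE 0.14) and FTL, the light chain of ferritin (0.12, SE 0.05). The constitutive oxygenase HMOX2 was at 0.04 (SE 0.08), the transferrin receptor TFRC at −0.04 (SE 0.07), and BACH1, the heme-sensing repressor of HMOX1, at −0.04 (SE 0.07). Among targets of the oxidative stress factor NRF2, 22 of 25 were tested, 17 were positive, the median was 0.09, and 6 were higher and 0 lower at the unadjusted level. These included the thioredoxin reductase TXNRD1 (0.14, SE 0.05) and the glutathione synthesis subunit GCLC (0.17, SE 0.08). The quinone reductase NQO1, a standard NRF2 target, had −0.16 (SE 0.14), and NRF2's own gene NFE2L2 had −0.07 (SE 0.08).

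CHAC1 and SLC7A5 rose among the targets of ATF4, the transcription factor of the integrated stress response. CHAC1 (chromosome 15, 40952962 to 40956519, plus strand), an enzyme that splits glutathione, was at 5.30, 7.60 and 7.15 CPM in DMSO 1 to 3 and 10.3, 12.03 and 13.2 CPM in AGB1 1 to 3, without overlap (0.82, SE 0.16, edgeR adjusted p = 0.0207). This is the lowest level among the called genes with no near-identical copy, and limma-voom did not call it (adjusted p = 0.0566). SLC7A5 (chromosome 16, 87830023 to 87869488, minus strand), the large subunit of the leucine transporter LAT1, was at 425, 384 and 409.9 CPM in DMSO and 503, 497 and 512 CPM with AGB1. The gap between its groups was wider than either group, and it rose by 0.31 (SE 0.05, adjusted p = 0.00344). Its partner subunit SLC3A2 had 0.12 (SE 0.05, adjusted p = 0.541).

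ATF4 targets as a list leaned the same way. Of 34 members 33 were tested, 29 were positive, the median was 0.13, and 15 were higher and 0 lower at an unadjusted p under 0.05. Those next in order of p were the secreted glycoprotein gene STC2 (0.24, SE 0.06), the transcription factor gene ATF3 (0.29, SE 0.07) and the leucine sensor gene SESN2 (0.24, SE 0.06), none of which passed (adjusted p from 0.115 to 0.168). The cystine transporter SLC7A11 was at 46.5, 42.1 and 31.6 CPM in DMSO and 49.6, 51.4 and 54.4 CPM with AGB1 (0.37, SE 0.11). ATF4 itself was at 0.13 (SE 0.04). The stress hormone gene GDF15 went to the other side (−0.43, SE 0.29), and DDIT3, the gene of the pro-apoptotic factor CHOP, was at 0.04 (SE 0.18). The kinases and phosphatases that set the response up (17 tested) had a median of 0.02 and 0 called.

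Lists next to ATF4, which share some of its members, leaned upward without calls of their own. Cytosolic aminoacyl-tRNA synthetases, which charge tRNAs, were positive in 16 of 20 with a median of 0.07 (0.04 without AGB1 3) and 5 higher at the unadjusted level, FARSB (0.22, SE 0.06) and GARS (0.17, SE 0.05) leading by p. Serine and folate enzymes were positive in 13 of 18 tested, with a median of 0.08 and 4 at the unadjusted level, among them the serine synthesis enzymes PSAT1 (0.15, SE 0.05) and PSPH (0.22, SE 0.08). Among 23 amino acid transporters SLC7A5 alone was called and 14 were positive, with a median of 0.07 (0.12 without DMSO 1). None of the synthetases or serine and folate enzymes passed the threshold.

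RHOB and MYC, a pair of genes that many stimuli switch on within minutes, rose with AGB1. RHOB (chromosome 2, 20447074 to 20449445, plus strand), a small GTPase of endosomes and actin, was at 188, 184 and 218 CPM in DMSO and 257, 249 and 246 CPM with AGB1 (0.35, SE 0.06, adjusted p = 0.0151). MYC, a transcription factor of growth, was at 142, 156 and 154 CPM and 188, 177 and 189 CPM (0.29, SE 0.06, adjusted p = 0.0409). Neither gene's groups overlapped, although MYC was not called with library sizes alone as scaling. JUN, a subunit of AP-1, was just short of the threshold (419, 482 and 515 CPM against 569.8, 566 and 573 CPM, 0.27, SE 0.06, adjusted p = 0.0719). Of 27 immediate early genes tested, 16 were positive and the median was 0.12 (0.06 without DMSO 2), with 10 higher and 1 lower at the unadjusted level. The classical members FOS (0.22, SE 0.23) and EGR1 (−0.00081, SE 0.21) were not among them, and EGR3 was at −1.50 (SE 0.66). Of 13 genes of the MYC network 1, MYC itself, was called, and its partner MAX was at −0.03 (SE 0.07).

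Of the ribosomal protein genes 2 rose. RPLP1 (chromosome 15, 69452784 to 69456194, plus strand), a stalk protein of the large subunit, was at 1069.7, 1072 and 1137 CPM in DMSO and 1259.7, 1272 and 1279 CPM with AGB1 (0.22, SE 0.04, adjusted p = 0.0227). RPL36 (chromosome 19, 5674947 to 5691876, plus strand), another large subunit protein, was at 368, 381 and 442 CPM and 478, 481 and 484 CPM (0.28, SE 0.05, adjusted p = 0.0227). Both rose while the 84 tested genes of the list had 39 positive values and a median of −0.00175, with 7 higher and 6 lower at the unadjusted level. The AGB1 values of RPL36 lay within a range of a few CPM, and its DMSO values did not. Exons of HSD11B1L cover 17.6% of RPL36 on the same strand. Nucleolar genes of ribosome assembly were positive in 32 of 38 (median 0.05), with 0 called. At the unadjusted level 5 were higher and 0 lower (13.2%, against 7.76% of all tested genes). Among them were the phosphoprotein NOLC1 (0.14, SE 0.04) and the largest subunit of RNA polymerase I, POLR1A (0.14, SE 0.05).

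HSPA1A and U2AF1 each have a near-identical copy, and their calls have to be read with it. HSPA1A, an inducible chaperone of the HSP70 family, was at 22.2, 20.7 and 33.2 CPM in DMSO and 38.4, 36.4 and 41.7 CPM with AGB1 (0.61, SE 0.12). Of its 75-base words 71.2% are found in HSPA1B too. The sum of both, scaled by library totals alone, was at 434.5 to 553 CPM in DMSO and 538.4 to 589.2 CPM with AGB1. This sum overlapped between the groups and did not pass (log2 fold change 0.22, edgeR adjusted p = 0.269). The other heat shock chaperones had 0 calls and a list median of −0.00046.

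U2AF1 encodes the small subunit of the factor that recognises the 3′ splice site. It was at 5.99, 8.13 and 5.27 CPM in DMSO 1 to 3 and 23.4, 47.6 and 7.93 CPM in AGB1 1 to 3, so AGB1 3 lay inside the DMSO range. Its copy U2AF1L5 (chromosome 21, 6484623 to 6499261, minus strand) holds 98.4% of its words and showed the mirror image: 7.08, 12.1 and 10.4 CPM in DMSO and 7.81, 6.91 and 64.2 CPM in AGB1, with AGB1 3 the highest. Summed, and scaled by library totals alone, the pair stood at 13.1, 20.3 and 15.6 CPM in DMSO and 30.95, 54.5 and 71.8 CPM with AGB1. With dTAG47 the sums were 29.8, 25.4 and 14.98 CPM. The sums of the DMSO and AGB1 libraries did not overlap, and the log2 fold change of the sum was 1.69 (edgeR adjusted p = 6.33e-05). For U2AF1 alone DESeq2 (adjusted p = 0.257) and limma-voom (0.258) gave no call. The sum spreads more than 2-fold within the AGB1 group, and the part of read assignment between the copies in it was not tested.

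**Figure D2:**
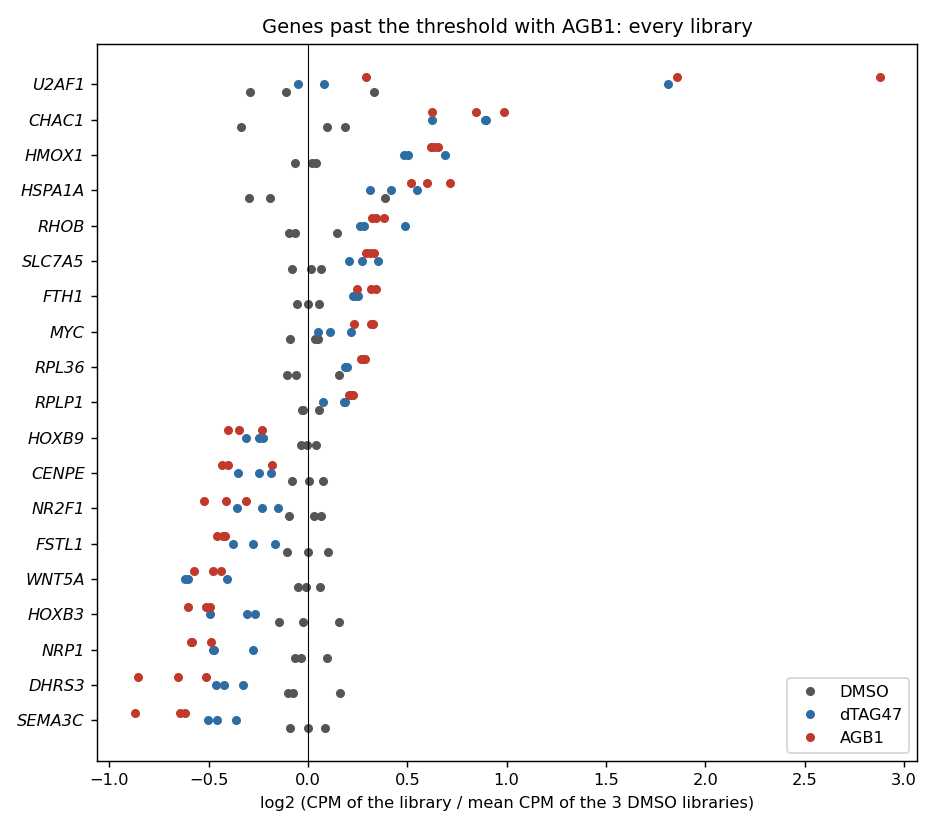
Every library of the 19 genes past the threshold. Each point is 1 library, placed on the horizontal axis by the log2 ratio of its CPM to the mean of the 3 DMSO libraries (grey DMSO, blue dTAG47, red AGB1), and genes are ordered by fold change. Red and grey points separate in every row except U2AF1, whose AGB1 libraries stood at 23.4, 47.6 and 7.93 CPM.

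SEMA3C and its receptor NRP1 fell together. SEMA3C (ENSG00000075223, chromosome 7, 80742538 to 80922359, minus strand), a secreted class 3 semaphorin that steers axons and migrating cells, was at 34.3, 32.3 and 30.3 CPM in DMSO 1 to 3 and 17.6, 20.7 and 21.01 CPM in AGB1 1 to 3. The groups were far apart, and it fell by 0.71 (SE 0.10, edgeR adjusted p = 0.00114). NRP1 (chromosome 10, 33177492 to 33336262, minus strand), the neuropilin that binds class 3 semaphorins and VEGF, was at 45.6, 41.7 and 40.8 CPM and 28.5, 28.4 and 30.4 CPM, a fall of 0.55 (SE 0.09, adjusted p = 0.00354). The other ligands and receptors of this family were tested in full. Of 14 genes 1 was positive, SEMA3B (0.06, SE 0.27), 4 were lower at the unadjusted level, and the median was −0.10 (−0.21 without AGB1 2). Besides the called pair these were the ligand gene SEMA3D (−0.57, SE 0.22) and the plexin gene PLXNA2 (−0.28, SE 0.12). NRP2, the sister receptor, was at −0.09 (SE 0.11), and the plexin PLXNA1 at −0.03 (SE 0.06).

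DHRS3 and NR2F1, genes that retinoic acid is known to induce, fell. DHRS3 (chromosome 1, 12567910 to 12617731, minus strand) reduces retinaldehyde back to retinol and so lowers retinoic acid synthesis. It was at 31.1, 30.5 and 36.6 CPM in DMSO and 18.1, 22.9 and 20.8 CPM with AGB1, without overlap, and fell by 0.67 (SE 0.11, adjusted p = 0.00327). The synthesis enzymes ALDH1A2 (−0.26, SE 0.07) and RDH10 (−0.14, SE 0.06) were on the same side without passing. Of the receptors, RARB, itself a standard target of retinoic acid, was at 20.2, 19.8 and 19.4 CPM in DMSO and 12.8, 14.6 and 14.5 CPM with AGB1, without overlap (−0.51, SE 0.12, adjusted p = 0.0995). RARG was at −0.30 (SE 0.12) and RARA at 0.19 (SE 0.11). The degrading enzymes CYP26A1 (−0.17, SE 0.27) and CYP26B1 (0.01, SE 0.12), which also respond to retinoic acid, had intervals across 0. Of 24 genes of retinoic acid handling 20 were tested, 8 were positive, 1 fell, 5 were lower and 0 higher at the unadjusted level, and the median was −0.15. DHRS9, ALDH1A1, CYP26C1 and CRABP1 were too low to test.

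NR2F1 (chromosome 5, 93583224 to 93594615, plus strand), an orphan nuclear receptor of neural patterning also called COUP-TFI, was at 87.2, 77.9 and 85.04 CPM in DMSO and 67.3, 62.5 and 58.04 CPM with AGB1. It fell by 0.41 (SE 0.08, adjusted p = 0.0151), and its groups lay apart. Its sister gene NR2F2 was at 108, 100.3 and 104 CPM and 98.3, 82.97 and 89.9 CPM, also without overlap but short of the threshold (−0.20, SE 0.07). All 5 tested receptors of the NR2 group were negative, with a median of −0.15 (−0.09 without AGB1 3).

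HOX genes, which give cells their position along the body axis and lie in 4 clusters, were led by 2 genes of the HOXB cluster that fell. HOXB9 (chromosome 17, 48621159 to 48626356, minus strand) was at 157, 162 and 154 CPM in DMSO and 134, 119 and 124 CPM with AGB1 and fell by 0.32 (SE 0.06, adjusted p = 0.0162). HOXB3 (chromosome 17, 48548870 to 48604912, minus strand) was at 22.5, 27.7 and 24.4 CPM and 17.7, 17.4 and 16.4 CPM and fell by 0.53 (SE 0.11, adjusted p = 0.0419). Neither overlapped between the groups. Of 39 HOX genes 37 were tested, leaving out HOXB1 and HOXD1, and 33 were negative with a median of −0.31. At the unadjusted level 15 were lower and 0 higher, against 4.21% and 3.55% of all tested genes. The groups did not overlap in 18, all lower, where 6.75% of all tested genes were lower and 6.56% higher without overlap. Among the 29 at 5 CPM or more the median was −0.31 and 3 were positive.

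Every cluster had lower sums with AGB1. Summed over its tested genes, the HOXC cluster stood at 89.6, 95.5 and 107 CPM in DMSO 1 to 3 and at 70.7, 73.7 and 70.02 CPM in AGB1 1 to 3. HOXB summed to 289.5, 305 and 301.5 CPM against 253, 240.2 and 247 CPM. HOXD summed to 138, 137 and 153 CPM against 127, 128 and 127 CPM, and HOXA to 422, 444 and 445 CPM against 406, 410.4 and 415 CPM. In none of the 4 did the sums of the AGB1 and DMSO libraries overlap. The medians over genes were −0.41 for HOXC (9 genes, 5 lower at the unadjusted level), −0.34 for HOXD (8 genes, 1 lower), −0.32 for HOXB (9 genes, 6 lower) and −0.15 for HOXA (11 genes, 3 lower). Without AGB1 2 the HOXA median was −0.25, and with the GC trend removed they were −0.42, −0.34, −0.34 and −0.15.

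Single genes varied within each cluster. In HOXC the 3 with the smallest p were HOXC4 (19.3, 22.8 and 23.6 CPM against 12.2, 14.2 and 16.6 CPM, −0.61, SE 0.15), HOXC13 (−0.54, SE 0.14) and HOXC9 (−0.46, SE 0.13). None passed (adjusted p = 0.110, 0.198 and 0.257). In HOXD the sum is mostly HOXD13, which was at −0.07 (SE 0.07), while HOXD10 was at 30.6, 31.2 and 33.9 CPM against 25.7, 25.3 and 23.8 CPM (−0.36, SE 0.10, adjusted p = 0.205). In HOXA the abundant HOXA9 was on the other side (0.10, SE 0.07), HOXA5 was at −0.14 (SE 0.06), and the low HOXA2 at −0.87 (SE 0.28). HOXB4 (0.16, SE 0.15) and HOXB13 (0.01, SE 0.09) were positive beside the 2 genes that fell. HOX transcripts overlap each other: HOXB3 shares 7.9% of its exonic bases with HOXB4 and HOXB6 on the same strand, and 91.9% of the words of HOXD3 and 74.3% of those of HOXD4 occur in the readthrough gene AC009336.2.

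PBX and MEIS proteins bind DNA together with HOX proteins, and their genes were on the same side. Of 9 tested 2 were positive, 5 were lower at the unadjusted level, 0 were called and the median was −0.21. PBX3 was at 29.96, 29.5 and 29.6 CPM in DMSO and 22.4, 21.6 and 22.7 CPM with AGB1 (−0.42, SE 0.10, adjusted p = 0.130), and its groups did not overlap. MEIS3 had −0.37 (SE 0.13) and MEIS2 −0.29 (SE 0.10), while MEIS1 had −0.12 (SE 0.13).

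**Figure D3:**
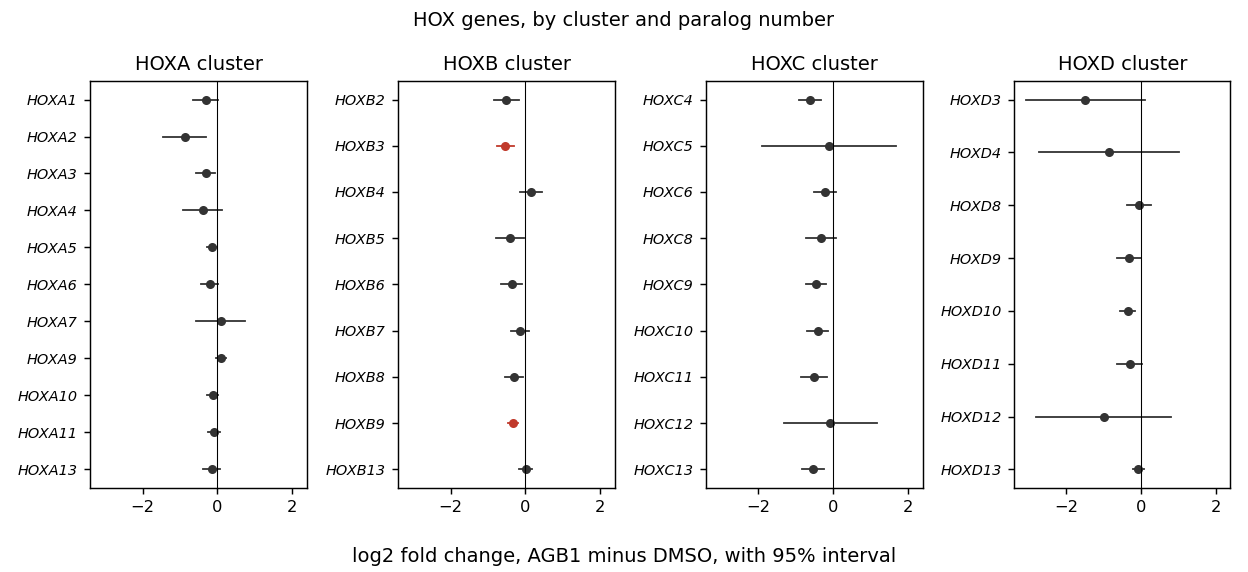
Log2 fold change of AGB1 minus DMSO for each tested HOX gene, with its 95% interval, by cluster and paralog number. Red marks HOXB3 and HOXB9, the 2 past the threshold; 33 of 37 points lie left of 0, and the wide intervals belong to genes under 5 CPM.

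WNT5A and FSTL1, a pair of secreted proteins of developing tissues, fell. WNT5A (chromosome 3, 55465715 to 55490539, minus strand), a ligand of non-canonical WNT signalling, was at 44.3, 42.2 and 40.99 CPM in DMSO and 28.6, 30.5 and 31.4 CPM with AGB1, a fall of 0.49 (SE 0.09, adjusted p = 0.0151). FSTL1 (ENSG00000163430, chromosome 3, 120392293 to 120451253, minus strand), a follistatin-related glycoprotein that binds BMP ligands, was at 131, 122 and 114 CPM and 88.8, 90.9 and 91.6 CPM and fell by 0.43 (SE 0.07, adjusted p = 0.00327). The AGB1 values of FSTL1 were close together and all below the lowest DMSO value. Among 34 WNT ligands, receptors and targets 10 were positive and the median was −0.09. At the unadjusted level 4 were lower and 0 higher (11.8%, against 7.76% of all tested genes). The planar polarity gene VANGL2 was at 51.7, 58.5 and 59.7 CPM against 45.01, 48.03 and 43.8 CPM (−0.31, SE 0.08, adjusted p = 0.160) and the WNT effector LEF1 at −0.39 (SE 0.10), while AXIN2, the standard feedback target of canonical WNT signalling, was at −0.06 (SE 0.15). Of 26 BMP genes tested 11 were positive (median −0.07, and −0.0096 without DMSO 3). The receptor BMPR2 was at −0.31 (SE 0.09), and the BMP target genes ID1 (0.25, SE 0.11), ID3 (0.19, SE 0.07) and ID4 (0.25, SE 0.07) were positive at the unadjusted level.

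CENPE, the kinetochore motor that carries chromosomes to the spindle equator (chromosome 4, 103105806 to 103198409, minus strand), fell. It was at 214, 193 and 204 CPM in DMSO 1 to 3 and 154, 179.8 and 151 CPM in AGB1 1 to 3, without overlap (a fall of 0.34, SE 0.07, adjusted p = 0.0227), and at −0.28 with the GC trend removed. In the list of 53 mitotic genes 18 were positive, 10 were lower and 0 higher at the unadjusted level, and the median was −0.04 (−0.02 with the GC trend removed). The spindle checkpoint kinase TTK was at −0.33 (SE 0.09) and the kinetochore subunit NDC80 at −0.22 (SE 0.09), whereas the mitotic kinases PLK1 (0.04, SE 0.06) and AURKB (−0.01, SE 0.06) and the cyclin CCNB1 (0.01, SE 0.05) stood near 0. The 34 genes of DNA replication had a median of 0.00033 and 0 below an unadjusted p of 0.05 in either direction.

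Genes of nucleotide synthesis, next to the targeted complex, had 0 calls in any list. De novo purine synthesis was positive in 9 of 11 with a median of 0.05 (0.03 without DMSO 3). Its committing enzyme PPAT, which uses PRPP, was at −0.09 (SE 0.06), the guanine branch enzyme IMPDH2 at 0.06 (SE 0.05), and 1 gene, the muscle adenylosuccinate synthase ADSSL1, was higher at the unadjusted level (0.48, SE 0.22). The salvage enzymes HPRT1 and APRT join PRPP to a free base. HPRT1 was at 120.04, 121 and 121 CPM in DMSO and 139.98, 124 and 137 CPM with AGB1 (0.15, SE 0.06, edgeR adjusted p = 0.552), and APRT was at 0.12 (SE 0.06). Both were higher without overlap, as were 6.56% of all tested genes, and neither passed the threshold. The NAD salvage enzyme NAMPT was at 0.05 (SE 0.06), and 8 of 13 salvage genes were positive (median 0.05, from 0.03 without DMSO 3 to 0.09 without AGB1 3). Pentose phosphate genes were positive in 10 of 10 with a median of 0.07 (0.12 without DMSO 3), and H6PD (0.23, SE 0.09) alone was under the unadjusted level. Pyrimidine genes were positive in 7 of 14 (median 0.0035), with TYMS, the thymidylate synthase, at 0.22 (SE 0.09). Genes of ribonucleotide reduction and dNTP supply were positive in 7 of 9 (median 0.08, and 0.12 without DMSO 3). For the reductase genes RRM1 and RRM2 the values were −0.02 (SE 0.05) and 0.06 (SE 0.06), and TK2, the mitochondrial thymidine kinase, was at 0.36 (SE 0.12).

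AGB1 binds VHL and carries a ligand for the mutated bromodomain of the tag. Genes that answer to VHL and to BET proteins, which hold bromodomains, were read as well. VHL removes the hypoxia factors HIF1A and EPAS1, whose targets rise when it is blocked. Of 29 hypoxia targets tested 18 were positive, 0 were called and the median was 0.02. With the GC trend removed 2 were called. At the unadjusted level 3 were higher and 1 lower (13.8%, against 7.76% of all tested genes). The standard targets VEGFA (0.09, SE 0.08), PDK1 (0.04, SE 0.10), EGLN3 (−0.0019, SE 0.13) and BNIP3 (−0.04, SE 0.08) had intervals across 0. NDRG1 was at 77.6, 80.9 and 89.2 CPM against 103, 103 and 98.7 CPM (0.30, SE 0.07, adjusted p = 0.110). VHL itself was at 0.03 (SE 0.05). Of the BET genes, BRD2 was at 674, 662 and 657 CPM against 739, 709 and 741 CPM, without overlap but short of the threshold (0.13, SE 0.04, adjusted p = 0.359), and BRD3 was at 0.01 (SE 0.07). HEXIM1, whose message rises when BET proteins are inhibited, was at 0.10 (SE 0.07, −0.03 to 0.23), and MYC, which BET inhibitors lower in many cells, is the gene of that list that rose, among 14 tested with 11 positive and a median of 0.08 (0.04 without AGB1 1).

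**Figure D4:**
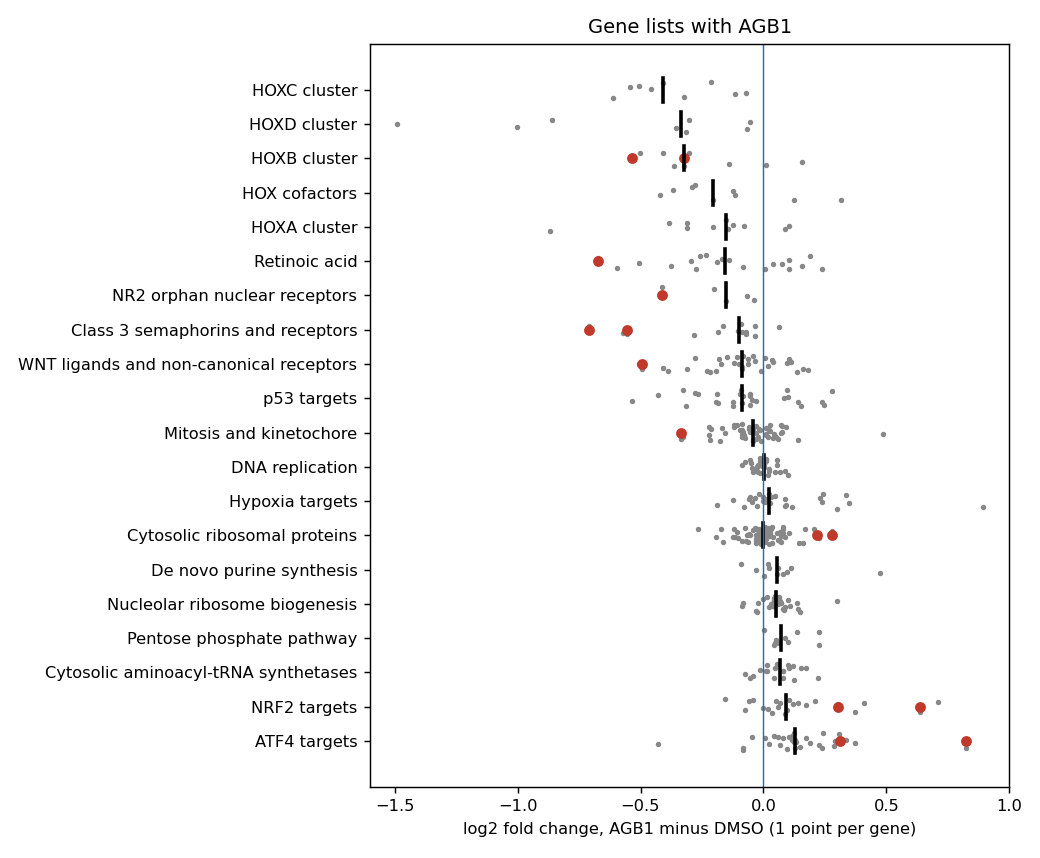
Log2 fold change of AGB1 minus DMSO for the tested members of 20 gene lists. Each grey point is a gene, red points are genes past the threshold, black bars are list medians and the blue line is the median of all tested genes. HOX and retinoic acid lists lie to the left and ATF4 and NRF2 lists to the right, with medians from −0.41 to 0.13.

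Some protein-coding genes stood just outside the threshold. FOXO4, a forkhead transcription factor, was the closest, at 87.98, 84.5 and 91.9 CPM in DMSO and 71.3, 68.4 and 72.5 CPM with AGB1 (−0.32, SE 0.07, adjusted p = 0.0628). It was followed by JUN, by the zinc finger gene ZNF608 (−0.51, SE 0.11), the short-chain dehydrogenase DHRS2 (0.72, SE 0.16), the keratin-associated protein KRTAP19-1 (−0.74, SE 0.17) and TUFT1 (0.40, SE 0.09). Their groups did not overlap, and their adjusted p ran from 0.0719 to 0.0777. Next came RARB, the splicing regulator ARGLU1 (−0.30, SE 0.07), the mitochondrial carrier SLC25A36 (−0.31, SE 0.07), NDRG1 and the heparan sulfatase SULF2 (−0.35, SE 0.08). All of these genes, from FOXO4 to SULF2, passed with DESeq2, and all but ARGLU1 passed with the GC trend removed. With limma-voom none of them passed. Targets of p53, which large T antigen binds in these cells, were positive in 8 of 28 (median −0.09) with 0 called. Lysosomal genes were positive in 27 of 34 (median 0.06) with 0 called.

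The same genes were set beside dTAG47, which shares the DMSO libraries with this comparison. SEMA3C had −0.71 with AGB1 and −0.44 with dTAG47, DHRS3 had −0.67 and −0.40, and MYC had 0.29 and 0.13. HMOX1 had 0.64 and 0.56, CHAC1 0.82 and 0.80, RHOB 0.35 and 0.35, and WNT5A −0.49 and −0.54. Over the 37 HOX genes the medians were −0.31 with AGB1 and −0.28 with dTAG47. A direct test of AGB1 against dTAG47, in which DMSO enters only through the shared estimate of spread, called 0 of 18319 genes (0%), with 736 at an unadjusted p under 0.05 (4.02%). DESeq2 and limma-voom also called 0, with 818 and 727 at that level. In 13 of the 19 genes called against DMSO the 95% interval of AGB1 minus dTAG47 included 0.

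The intervals of the other 6 lay on one side of 0, without passing the adjustment (edgeR adjusted p = 0.999 for each). Without a count filter, U2AF1 and its copy U2AF1L5 were called in this contrast. SEMA3C was at 23.5, 25.1 and 22.8 CPM in dTAG47 1 to 3, above every AGB1 library, and its difference was −0.27 (−0.48 to −0.06). DHRS3 was at 23.7, 26.1 and 24.4 CPM with dTAG47, again above every AGB1 library, with −0.27 (−0.49 to −0.05). For FSTL1 the difference was −0.16 (−0.30 to −0.03), for NR2F1 −0.17 (−0.32 to −0.01), for MYC 0.16 (0.04 to 0.29) and for U2AF1 1.14 (0.37 to 1.91). These genes were picked on their AGB1 libraries, which enter both contrasts. For HMOX1 the interval was −0.09 to 0.23, for CHAC1 −0.29 to 0.33 and for SLC7A5 −0.07 to 0.14, so a difference inside those bounds is not excluded. KRTAP19-1, which is not among the calls, was at 4.34, 6.19 and 6.73 CPM with AGB1 and 8.98, 8.71 and 9.88 CPM with dTAG47, against 9.14, 10.2 and 9.40 CPM in DMSO (−0.68, −1.02 to −0.34, adjusted p = 0.999). SULF2 was at 32.4, 33.2 and 34.96 CPM with AGB1 and 41.99, 39.5 and 39.03 CPM with dTAG47 (−0.26, −0.43 to −0.09).

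**Figure D5:**
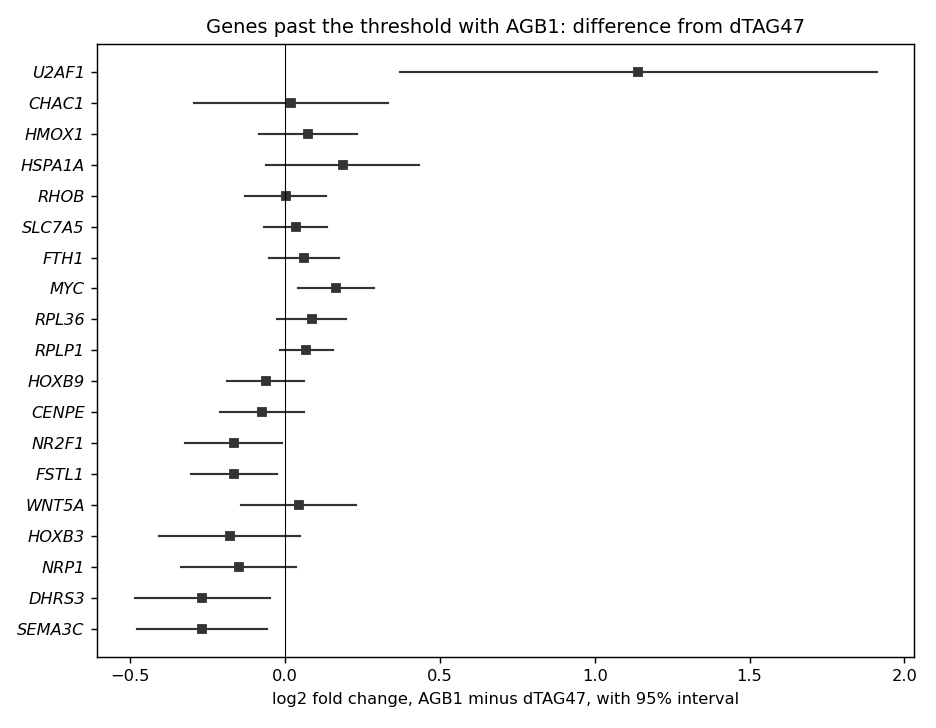
Difference between the degraders for the 19 genes called with AGB1. Squares are log2 fold changes of AGB1 minus dTAG47, lines their 95% intervals; 13 intervals include 0, and those of MYC, U2AF1, NR2F1, FSTL1, DHRS3 and SEMA3C do not.

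HMOX1, SEMA3C, FSTL1, DHRS3 and NRP1 passed without each of the 9 libraries in turn. For the remaining 14, some single library was needed for the call. Leaving out AGB1 1, AGB1 2 or AGB1 3 took the total of 19 to 13, 9 and 6. Leaving out DMSO 1, DMSO 2 or DMSO 3 took it to 10, 7 and 55.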

How the data were processed

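RNA-seq of 9 libraries, 3 per group, was read as raw counts per Ensembl gene, as deposited by the authors. HISAT2, DESeq2 and build hg38 are named per the submitters' processing notes, while the counting tool, its use of strand and all versions were not given in the sources used here. Genes were filtered by group (filterByExpr), scaled by TMM and tested with edgeR 4.0.16 (R 4.3.3, quasi-likelihood, all 9 libraries, adjusted p 0.05). CPM uses TMM-scaled library sizes, under which 3 counts are 0.0670 to 0.107 CPM, and intervals are 95%. The CPM of summed gene copies uses library totals alone. Alternatives were DESeq2 1.42.0, limma-voom (limma 3.58.1), other scalings and filters, only 2 groups, a replicate block, GC trend removal (lowess span 0.3) and leaving out each library, with summed gene copies added after seeing the data. Scripts were tested on simulated data. Gene models were GENCODE, matched to the IDs of the counts, and promoters were from RefSeq (GRCh38.p14). Members and gene lists were chosen with earlier results of these data known, so list counts are descriptions. Planned for naming were the PRPP synthetase genes, all called genes and the 12 next protein-coding genes by p at 5 CPM or more. The plan added the 4 members of each list with the smallest p, and full lists where an order is given. For some lists the text names fewer of these members, or none. Further list members were named as well-known members after their values were seen. Some items are not reported here. Of the other lists, those without a result in the text are summarised among the other observations.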

Additional observations from a re-analysis of the deposited data

How the results depend on the processing

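None of the 19 called genes changed direction against DMSO under the alternatives run, while PRPSAP1, which was not called, ran from −0.16 to 0.17 when single libraries were left out. Of the 10 higher and 9 lower genes, DESeq2 gave 32 and 49, no count filter 23 and 44, GC trend removal 24 and 24, and GC trend removal with the replicate block 26 and 25. Leaving out 1 library gave 2 to 24 higher and 4 to 31 lower, with 24 and 31 without DMSO 3. The replicate block alone gave 9 and 8 and ended HOXB3 and MYC. Deviations from the group mean correlated at −0.16 to 0.07 between same-numbered libraries, and at −0.25 to 0.26 between differently numbered ones. With 3 libraries per group this cannot decide whether the numbers mark a shared culture or batch. DESeq2 ended U2AF1, limma-voom ended U2AF1, CHAC1 and HOXB3, and library sizes alone ended MYC. AGB1 against dTAG47 gave 0 calls except 13 without a count filter, an alternative chosen after seeing the data, and 0 to 2 without 1 library. U2AF1 and its copy U2AF1L5 were among those 13. Leaving out 1 library changed the sign of 11 of 46 list medians, each within 0.05 of 0 with all libraries, moved 21 others by more than 1.5 times and left 14 within that. The medians that moved included immediate early genes (0.06 without DMSO 2, and 0.21 at 5 CPM or more), FOXO and growth arrest genes (−0.12 without AGB1 3), HOXA (−0.25 without AGB1 2), ribosomal proteins (−0.05 without DMSO 1), histones (0.19 without DMSO 3, 0.06 without AGB1 3) and semaphorins (−0.21 without AGB1 2). The cause was not tested. With 3 libraries per group, the standard error of the log2 fold change had a median of 0.09 at 5 CPM or more, which limits the size of change that could be called.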

Other observations

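FOXO and growth arrest genes, which hold back the cell cycle when growth signals are low, were positive in 8 of 22 tested with a median of −0.05 (−0.12 without AGB1 3, −0.02 without AGB1 2), and 6 were lower and 0 higher at an unadjusted p under 0.05. After FOXO4 these were led by the stress sensor SESN1, at 17.5, 21.04 and 16.9 CPM in DMSO and 14.4, 12.5 and 14.2 CPM with AGB1 (−0.43, SE 0.12), and the p53-induced nuclear protein TP53INP1 (−0.54, SE 0.16). None of the 22 passed the adjustment. SESN1 and TP53INP1 are also in the list of p53 targets, in which MDM2, the ligase that removes p53, was at −0.18 (SE 0.07) and 5 were lower and 2 higher at the unadjusted level.

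Mitochondrial genome transcripts were positive in 4 of 15 (median −0.07, from −0.12 without AGB1 1 to −0.03 without AGB1 3), with the ribosomal RNAs MT-RNR2 (−0.19, SE 0.05) and MT-RNR1 (−0.24, SE 0.07) leading by p and MT-ND3, a subunit of complex I, on the other side (0.17, SE 0.05). Extracellular matrix genes were positive in 11 of 28 tested (median −0.04, and 0.02 without DMSO 1), with the collagen gene COL5A1 at −0.35 (SE 0.13) and the matricellular CYR61 at 0.25 (SE 0.08). Histone genes, many of which are near-identical, were positive in 23 of 39 tested (median 0.11, from 0.06 without AGB1 3 to 0.19 without DMSO 3). Cholesterol synthesis (17 of 26 positive, median 0.01) included the sterol carrier STARD4 at −0.35 (SE 0.09), and the unfolded protein response (16 of 25, median 0.01) the chaperone HSP90B1 at −0.13 (SE 0.04). Glycolysis was positive in 18 of 24 (median 0.05), proteasome subunits in 20 of 32 (median 0.03), kidney and neural lineage genes in 10 of 22 (median −0.02) and subunits of the VHL and CRBN ligases in 7 of 12 (median 0.02). CRBN, the receptor that dTAG47 uses, was at 8.47, 9.38 and 9.34 CPM in DMSO and 10.7, 11.5 and 12.8 CPM with AGB1 (0.36, SE 0.14). No gene of the lists in this paragraph passed the threshold.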
